A study of Mus musculus with 4 samples.

Results

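Immune checkpoints and T cell activation genes were followed as 10 named genes, of 31053 genes listed in the 4 matrices, and every gene was matched by its symbol. The 7 receptor and activation genes were Pdcd1, Ctla4, Lag3, Tigit, Havcr2, Icos and Cd69, and the 3 ligand genes were Cd274, Pdcd1lg2 and Vsir. All 10 had at least 1 UMI (a unique molecular identifier, which marks 1 captured transcript), from 35 UMIs of Tigit to 92868 of Vsir in the cells kept from all libraries. The study sorted live CD45+ cells from spinal cords of adult C57BL/6 mice of both sexes after a moderate contusion at T10, and sequenced 1 library per condition with a 10x 3′ chemistry. The sham mice had the laminectomy without the contusion. Of the sham libraries, 1 came from a standard dissociation and the other from a dissociation with actinomycin D (ActD), an inhibitor of transcription that limits gene induction during digestion. The injured cords were taken at 3 and 14 days post-injury (dpi), and both were treated here as ActD libraries. The mice of a condition were pooled, so no value below has a replicate, and condition, library and animals cannot be told apart.

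Checkpoint receptors restrain or modulate the signal that a T cell receives through its antigen receptor. PD-1, encoded by Pdcd1, binds the ligands PD-L1 (Cd274) and PD-L2 (Pdcd1lg2), CTLA-4 competes with CD28 for CD80 and CD86, and LAG-3, TIGIT and TIM-3 (Havcr2) are further inhibitory receptors of lymphocytes. ICOS is a costimulatory receptor of the CD28 family, CD69 is an early activation and tissue-retention marker, and VISTA (Vsir) is an inhibitory molecule of myeloid cells and T cells. Several of these genes are also known outside T cells, with Havcr2 in myeloid cells and Lag3 in plasmacytoid dendritic cells.

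The libraries held 2439 to 11631 barcodes, of which 2135 to 9078 cells were kept, with a median of 7426 to 9672 UMIs per cell. Pairs of libraries shared 3 to 36 barcodes. Cells were placed in classes by clusters and marker lists, and the 10 genes took no part in the clustering. The T-cell-like class held 32 and 15 cells in the sham libraries (standard, then ActD), 518 at 3 dpi and 627 at 14 dpi, and the microglia-like class held 2635, 1600, 872 and 4024. Series of 4 values below keep that order. In the 3 dpi and 14 dpi T-cell-like cells all 8 T cell markers were found in at least 25% of cells, and none of 7 B cell markers was. Levels are UMIs of a gene per 1000000 UMIs of the class (CPM) with an exact 95% Poisson interval, which covers counting error only. Software version 3.0.1 stands in the matrix headers at 3 dpi and in the standard sham, and version 3.1.0 at 14 dpi and in the ActD sham.

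On chromosome 1 of the GRCm38 build, Ctla4 (chr1:60887000-60915832, plus strand) and Icos (chr1:60977927-61000320, plus strand) lie 62094 bases apart. Cd274 (chr19:29367455-29388095) and Pdcd1lg2 (chr19:29410919-29471161) are neighbours on the plus strand of chromosome 19, with 22823 bases between them. Lag3 (chr6:124904361-124911705, minus strand) lies 16139 bases from Cd4. The other genes lie at chr1:94038305-94052553 (Pdcd1), chr16:43648867-43664146 (Tigit), chr6:129267325-129275436 (Cd69), all on the minus strand, and chr11:46454935-46481255 (Havcr2) and chr10:60346851-60372684 (Vsir), on the plus strand. The annotated gene Cdh23 overlaps Vsir, and shorter annotated genes overlap Ctla4, Icos, Cd274 and Pdcd1lg2, so their counts are uncertain where exons are shared.

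In T-cell-like cells Icos had the lowest ratio of 14 dpi over 3 dpi, and Lag3 was the single receptor gene past 2-fold. The class leaves out a separate gamma-delta T-cell-like class, of 8 cells at 3 dpi and 123 at 14 dpi. That class was high in Icos and Pdcd1 at 14 dpi, as given below. At 3 dpi 27 cells with gamma-delta marker UMIs stayed in the T-cell-like class, and 22 at 14 dpi. The 2 times are thus split unequally, and ratios with both classes together were not taken. Icos stood at 122 CPM in the standard sham, 72.6 in the ActD sham, 190 at 3 dpi (95% interval 171 to 210) and 101 at 14 dpi (91.1 to 113). The 14 dpi level was below the 3 dpi level beyond counting error, with a log2 ratio of -0.90 (95% interval -1.12 to -0.69), and it passed 2-fold lower under 4 other choices of cells, at -1.01 to -1.05, but was -0.58 with each cell named by its own UMIs, -0.60 in cells with Cd4 and no Cd8 UMIs and -0.21 in cells with Cd8 and no Cd4 UMIs. Ctla4, whose product competes with CD28, stood at 58.9, 45.4, 33.8 and 47.4 CPM, and the log2 ratio of 14 dpi over 3 dpi was 0.49 (0.07 to 0.92), which became -0.056 under a stricter filter (1000 genes, 5% mitochondrial UMIs). Pdcd1 stood at 37.9 CPM in the standard sham, at 0 UMIs in the ActD sham, which allows up to 27.2 CPM, at 25.4 CPM at 3 dpi and at 28.2 CPM at 14 dpi. Its ratio of 14 dpi over 3 dpi did not leave counting error (log2 0.15, -0.35 to 0.67). Cd69 was at 345, 281, 413 and 409 CPM, so the injured libraries differed by -0.02 on the log2 scale (-0.14 to 0.11). The sham values rest on 32 and 15 cells, and their intervals overlapped those of both injured libraries for Ctla4, Pdcd1 and Cd69. The study's flow cytometry reported an increase of ICOS+ and of CTLA4+ T cells at the later time after injury. The Icos RNA level here went the other way, as did the share of cells with an Icos UMI, given below. The Ctla4 ratio went the same way as the flow cytometry, except under the stricter filter. RNA levels and stained protein are different measures, and the cause of the Icos difference was not tested.

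Lag3 was at 5.97 CPM (3.08 to 10.4) in T-cell-like cells at 3 dpi and at 19.1 CPM (14.8 to 24.4) at 14 dpi, a log2 ratio of 1.68 (0.78 to 2.70). In the same library B-cell-like cells had 15.6 CPM at 14 dpi (9.76 to 23.6), and the intervals of the T-cell-like and B-cell-like cells overlapped. The cells with Cd8 and no Cd4 UMIs held 38 of the 65 Lag3 UMIs of the class at 14 dpi, at 25.2 CPM (17.8 to 34.6). Lag3 was also higher at 14 dpi than at 3 dpi in microglia-like (log2 4.96), macrophage-like (6.99), monocyte-like (4.35) and neutrophil-like cells (3.40). The log2 ratio was 1.28 in conventional DC2-like cells and -0.88 in plasmacytoid DC-like cells. A higher Lag3 level was thus not particular to T-cell-like cells. The part of free RNA in the T-cell-like values was not tested. Havcr2 was at 17.9 CPM at 3 dpi and 10.9 at 14 dpi, a log2 ratio of -0.72 (-1.42 to -0.01) that became 0.025 with doublets kept, beside 5.69 and 4.95 CPM in B-cell-like cells. Tigit had 9 UMIs in T-cell-like cells in each of the injured libraries, 4.48 and 2.65 CPM, and none in either sham library. The class totals at 3 and 14 dpi thus gave Tigit too few UMIs for a ratio, since a ratio was taken only from at least 20 UMIs in the pair.

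Of the 6 receptor and activation genes that reached 20 UMIs, 1 (Lag3) was past 2-fold higher at 14 dpi, beside 6.32% of 9574 genes tested, and 0 were past 2-fold lower, beside 6.95%. The median log2 ratio was 0.07 over these genes and 0.14 over all genes tested. Most of the 3 dpi T-cell-like cells lay in other clusters than those at 14 dpi. These lymphoid clusters were made without integration of the libraries. A difference between libraries and a difference between T cell types therefore cannot be told apart in them. A cluster led by Ccl5, Trbc2 and Cd3g held 434 of the 518 cells at 3 dpi and a cluster led by Tcf7 and Txk held 82. At 14 dpi the 627 cells lay in clusters of 210, 175, 163 and 79 cells, led by Trbc2 and Cd3g, by Cd8b1 and Cd8a, by Ms4a4b and Cd8b1, and by Trbc2 and Cd3d. A change within a T cell type and a change in the mix of types cannot be told apart from these class sums.

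**Figure D1:**
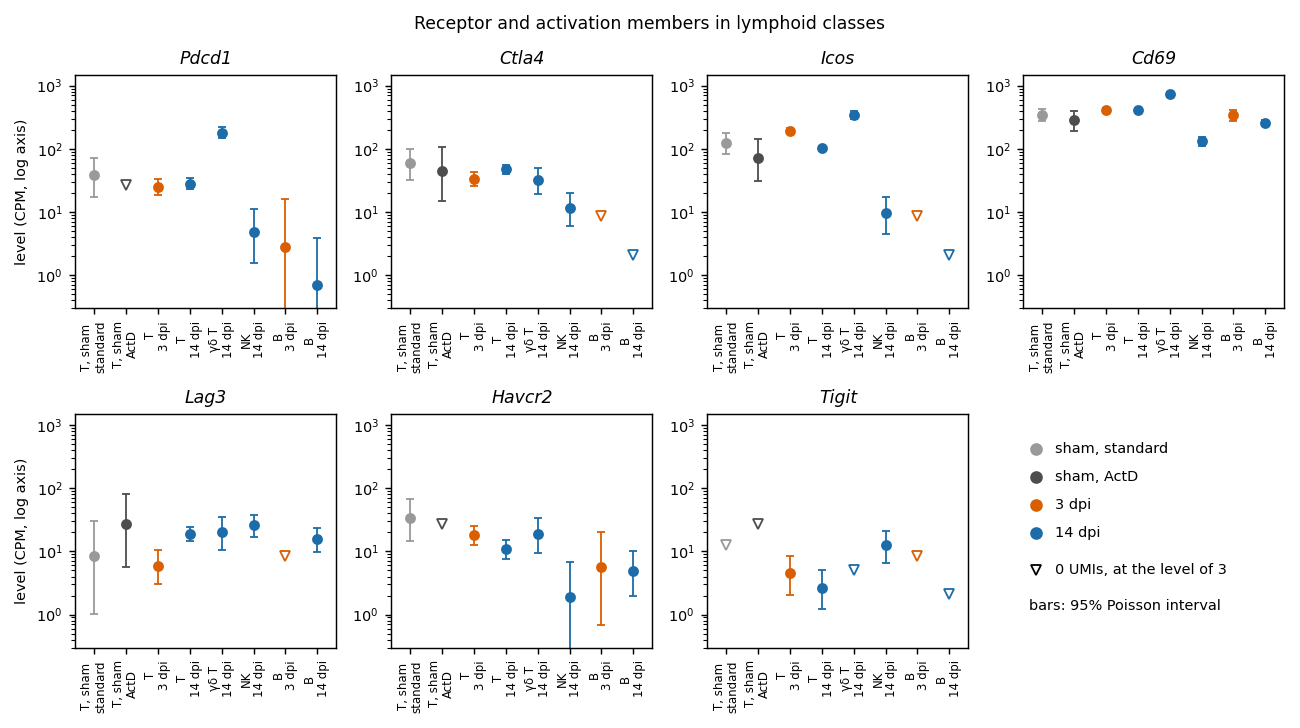
Levels of the 7 receptor and activation genes (CPM, log axis) in T-cell-like, gamma-delta T-cell-like, NK-cell-like and B-cell-like cells of the libraries plotted, with 95% Poisson intervals. Open triangles mark 0 UMIs and stand at the level of 3 UMIs. The gamma-delta T-cell-like class has the highest point plotted for Pdcd1 (180 CPM), Icos (344 CPM) and Cd69 (732 CPM).

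The clusters showed which T-cell-like cells held these genes. At 3 dpi the Ccl5 cluster had 29.5 CPM of Pdcd1, 216 of Icos (194 to 239) and 437 of Cd69. The smaller Tcf7 cluster, led by genes of naive and memory-like cells, had no Pdcd1 UMIs, which allows up to 11.1 CPM, with 29.5 CPM of Icos (12.7 to 58.1) and 265 of Cd69. At 14 dpi Pdcd1 was lowest in the cluster led by Trbc2 and Cd3d, at 4.21 CPM, and stood at 43.1 CPM (31.6 to 57.5) in the Cd8b1 and Cd8a cluster and 38.9 (26.8 to 54.6) in the Ms4a4b cluster, whose intervals overlapped. The Ms4a4b cluster, which also lists Xcl1 and Gzmb among its leading genes, had the highest Ctla4 of the 4, 86.0 CPM (67.4 to 108), and the highest Cd69, 603 CPM (552 to 658). The same cluster had 74.2 CPM of Cd274 (57.0 to 94.96), against 14.99 to 25.2 CPM in the other 3 clusters.

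Split by UMIs of Cd4, Cd8a and Cd8b1, the T-cell-like cells had more Icos with Cd4 than with Cd8 at both times, while Pdcd1 stood in a different order at each time. Cells with Cd4 and without Cd8 UMIs were 205 of 518 (39.6%, exact 95% interval 35.3 to 43.9) at 3 dpi and 207 of 627 (33.01%) at 14 dpi, and cells with Cd8 and without Cd4 UMIs were 145 (28.0%) and 257 (41.0%). Icos was at 263 CPM (229 to 300) in Cd4 cells at 3 dpi and at 174 (150 to 201) at 14 dpi, but at 61.3 and 53.1 CPM in Cd8 cells, with intervals that overlapped. In cells with neither marker Icos was at 209 CPM at 3 dpi and 87.1 at 14 dpi. Pdcd1 in Cd8 cells was at 14.0 CPM (6.04 to 27.6) at 3 dpi and 42.4 (32.7 to 54.2) at 14 dpi, whereas in Cd4 cells it was at 23.7 and 23.5. In cells with neither marker Pdcd1 was at 39.9 CPM (24.4 to 61.6) at 3 dpi and 5.05 (1.38 to 12.9) at 14 dpi. The near-equal Pdcd1 levels of the whole class therefore summed a higher level in 1 gate and a lower level in another. A gate on UMIs misses cells in which the marker was not captured, and the median T-cell-like cell held 3603.5 UMIs at 3 dpi and 5253 at 14 dpi.

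Foxp3, the lineage factor of regulatory T cells, had UMIs in 0 of 518 T-cell-like cells at 3 dpi, which allows a share of cells with a UMI of up to 0.579% and sets no limit on cells that express the gene without a captured UMI, and in 29 of 627 (4.63%, 3.12 to 6.58) at 14 dpi. Those 29 cells had 398 CPM of Ctla4 (301 to 517), against 61.9 (47.2 to 79.7) in the Cd4 cells without Foxp3 UMIs. Their Icos level was 377 CPM (282 to 493), against 155 in the Cd4 cells without Foxp3 UMIs. Their Pdcd1 level, 64.0 CPM (29.2 to 121), came from 9 UMIs, and the interval overlapped that of the Cd4 cells without Foxp3 UMIs, 19.6 CPM (11.8 to 30.6). The cells with Foxp3 UMIs were not required to have Cd4 UMIs. With the Foxp3 cells left out, Ctla4 in Cd4 cells stood at 43.8 CPM at 3 dpi and 61.9 at 14 dpi, with intervals that overlapped.

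**Figure D2:**
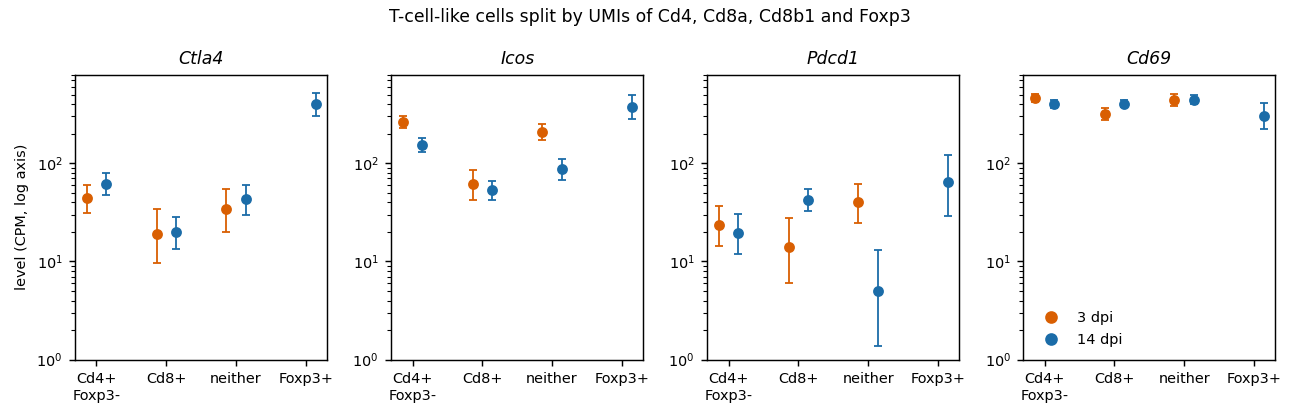
Levels (CPM, log axis, 95% Poisson interval) of Ctla4, Icos, Pdcd1 and Cd69 in T-cell-like cells split by UMIs of Cd4, Cd8a or Cd8b1, and Foxp3 at 3 and 14 dpi. Cells with Foxp3 UMIs, found at 14 dpi and not at the lower depth of 3 dpi, have the highest Ctla4, 398 CPM, and Pdcd1 stands in opposite order at the 2 times in the Cd8 gate and in cells with neither marker.

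Some T-cell-like cells carried UMIs of Trdc, a gamma-delta receptor gene, or Cd163l1, a gamma-delta T cell marker, and this split was chosen after values were seen. They were 27 cells at 3 dpi, with 102 CPM of Pdcd1 (52.6 to 178) and 348 of Icos, and 22 cells at 14 dpi, with 14.1 CPM of Pdcd1 and 28.2 of Icos. Without them the class had 20.6 CPM of Pdcd1 (14.7 to 28.2) at 3 dpi and 28.9 (23.3 to 35.3) at 14 dpi, and 180 and 105 CPM of Icos. In the cells with neither Cd4 nor Cd8 UMIs and without these markers, Pdcd1 was still at 29.5 CPM (15.7 to 50.4) at 3 dpi and 2.94 (0.356 to 10.6) at 14 dpi. This split only removes cells from the class. Ratios with the separate gamma-delta T-cell-like class added to it were not taken.

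The gamma-delta T-cell-like cells of the 14 dpi library, 123 in number, had the highest Pdcd1 of any class with at least 20 cells. Pdcd1 was at 180 CPM (148 to 218), against 28.2 in the T-cell-like cells of that library. Icos was at 344 CPM (298 to 395) and Cd69 at 732 (665 to 804), both also above the T-cell-like class, while Ctla4, at 32.0 CPM (19.3 to 50.03), overlapped it. After thinning each cell to 1000 UMIs, 16.3% of these cells (10.2 to 24.0) had a Pdcd1 UMI and 25.2% an Icos UMI, against 4.15% and 8.77% of the T-cell-like cells. Of the B-cell-like cells in that library, none had a thinned UMI of either gene, and the median depths were 4665, 5253 and 3156 UMIs in the 3 classes. Without thinning the Pdcd1 shares were 41.5%, 10.7% and 0.275%. The sham and 3 dpi libraries held 2, 4 and 8 gamma-delta T-cell-like cells, so no level is given there.

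The 195 NK-cell-like cells at 14 dpi showed a different order. Pdcd1 was at 4.77 CPM (1.55 to 11.1), Icos at 9.54 and Cd69 at 132 (111 to 156), each below the T-cell-like level of the same library. Tigit, which is also a receptor of NK cells, had 13 UMIs in these cells, 12.4 CPM (6.60 to 21.2), against 2.65 CPM (1.21 to 5.03) in T-cell-like cells and 0 UMIs in gamma-delta T-cell-like cells. Of the 35 Tigit UMIs in the cells kept, 13 lay in these cells and 18 in T-cell-like cells of the injured libraries. Only 15 cells at 14 dpi were like type 2 innate lymphoid cells, and they had 128 CPM of Pdcd1 (63.9 to 229), 349 of Icos (236 to 498) and 1210 of Cd69, from 11, 30 and 104 UMIs.

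Icos UMIs were more frequent in T-cell-like cells with Ctla4 UMIs than in those without. Icos UMIs were found in 61.8% of the 55 T-cell-like cells with Ctla4 UMIs at 3 dpi (47.7 to 74.6), against 34.1% of the 463 without. At 14 dpi the shares were 55.1% of 98 cells (44.7 to 65.2) and 27.6% of 529 (23.8 to 31.6). Pdcd1 UMIs were found in 20.4% of the cells with Ctla4 UMIs at 14 dpi (12.9 to 29.7) and in 8.88% of those without, while at 3 dpi the shares were 10.9% and 6.05%, with intervals that overlapped. At 14 dpi the median depth was 5024 UMIs in the cells with Ctla4 UMIs and 5322 in those without. At 3 dpi the medians were 3831 and 3560 UMIs. These shares were taken without thinning, and the part of depth and of the mix of T cell types in them was not tested.

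A list of 20 other genes, most of them receptors of T cells, also held genes that are not receptors, such as Tox and Cd40lg. All 20 had at least 20 UMIs in the T-cell-like cells of the injured libraries. At 14 dpi 3 were past 2-fold higher, beside 6.32% of 9574 genes tested, and 0 lower, beside 6.95%. Tox, a nuclear factor that accompanies long stimulation of T cells, was at 14.4 CPM at 3 dpi and 59.7 at 14 dpi, a log2 ratio of 2.05 (1.48 to 2.66). Tnfrsf9, the costimulatory receptor 4-1BB, had a log2 ratio of 1.81 (0.91 to 2.83). Cd226, an activating receptor that shares its ligands with TIGIT, went from 53.2 to 128 CPM, a log2 ratio of 1.27 (0.96 to 1.58). The lowest ratios were those of Cd44, an adhesion receptor of activated cells, at -0.56, Tnfrsf1b at -0.31 and Tnfrsf4, which encodes OX40, at -0.29. The median of the 20 was 0.32, against 0.14 over all genes tested.

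Outside lymphocytes, Lag3 was at its highest levels in microglia-like cells, and those of the 3 dpi library were almost without it. Lag3 was at 247 CPM (240 to 254) in the standard sham, 277 (269 to 285) in the ActD sham, 9.69 (8.22 to 11.4) at 3 dpi and 302 (297 to 307) at 14 dpi. The 3 dpi level was 28.6-fold lower than in the ActD sham (24.3 to 33.8), a log2 ratio of -4.84, and the 14 dpi level was 0.12 above the ActD sham on the log2 scale. When libraries were merged without integration, fewer than 20 cells at 3 dpi were named microglia-like. No 3 dpi ratio of this class was obtained there, and the levels given here are those of the integrated clusters. With each cell named by its own UMIs, without clusters, 757 cells were microglia-like at 3 dpi. Their Lag3 log2 ratio over the ActD sham was -4.67. The 3 dpi library was also the lowest inside each of the 3 main microglia-like clusters, while the order of the other libraries varied. In the cluster led by P2ry12, a gene of homeostatic microglia, Lag3 stood at 240, 267, 34.9 and 522 CPM. In the cluster led by Lpl it stood at 244, 265, 5.87 and 248 CPM, with 14 dpi below the ActD sham, and in that led by Il1a at 254, 305, 13.5 and 401 CPM. In the 3 dpi library 26 plasmacytoid DC-like cells had 204 CPM (142 to 284), against 110 in the standard sham and 111 at 14 dpi.

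The microglial markers were lowest at 3 dpi as well, but unlike Lag3 they stood below both sham libraries at 14 dpi. The 9 microglial markers summed to 11551 CPM in the standard sham, 20450 in the ActD sham, 4693 at 3 dpi and 9397 at 14 dpi, and all 9 were found in at least 25% of the microglia-like cells in the ActD sham and injured libraries. Their part in the Lag3 result was not tested. Over all genes the median log2 ratio of microglia-like cells was -0.54 at 3 dpi and -0.55 at 14 dpi, both over the ActD sham, so the ratios are best read against that shift.

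Havcr2, the receptor TIM-3, was at 173, 257, 104 and 153 CPM in microglia-like cells, a log2 ratio of -1.31 at 3 dpi (-1.39 to -1.22) and -0.75 at 14 dpi over the ActD sham, which are -0.77 and -0.20 relative to the median shifts. The 3 dpi value did not pass 2-fold over the standard sham (-0.73), with TMM factors, a scaling that removes most of the shift (-0.84), or within the P2ry12 cluster (-0.82). Pdcd1 was also found there. It stood at 5.38, 17.1, 13.7 and 27.9 CPM, and the 1370 UMIs at 14 dpi outnumbered the 96 in T-cell-like cells, at nearly the same CPM. Within the Lpl cluster Pdcd1 was at 31.2 CPM (29.4 to 33.1) at 14 dpi, against 12.7 (9.89 to 16.02) in the P2ry12 cluster. The Lpl cluster was the highest of the 3 in both sham libraries too, at 24.5 and 56.0 CPM, and the lowest at 3 dpi, at 9.85 CPM. Cd69 was at 12.4, 1.75, 11.3 and 10.8 CPM, so that the ActD sham was the low sample, and over the standard sham the log2 ratios were -0.12 and -0.20 at 3 and 14 dpi. Of 5 receptor and activation genes, 1 (Cd69) was past 2-fold higher and 2 (Lag3 and Havcr2) lower at 3 dpi over the ActD sham, beside 13.7% and 32.7% of 12174 genes, and 1 (Cd69) was higher and 0 lower at 14 dpi, beside 6.27% and 20.3%. A cluster led by Cxcl10, Rsad2 and Ifit3, genes of the interferon response, had 204 CPM of Cd69 (183 to 226) and 97.3 of Cd274 (82.9 to 113) at 14 dpi in 140 cells.

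**Figure D3:**
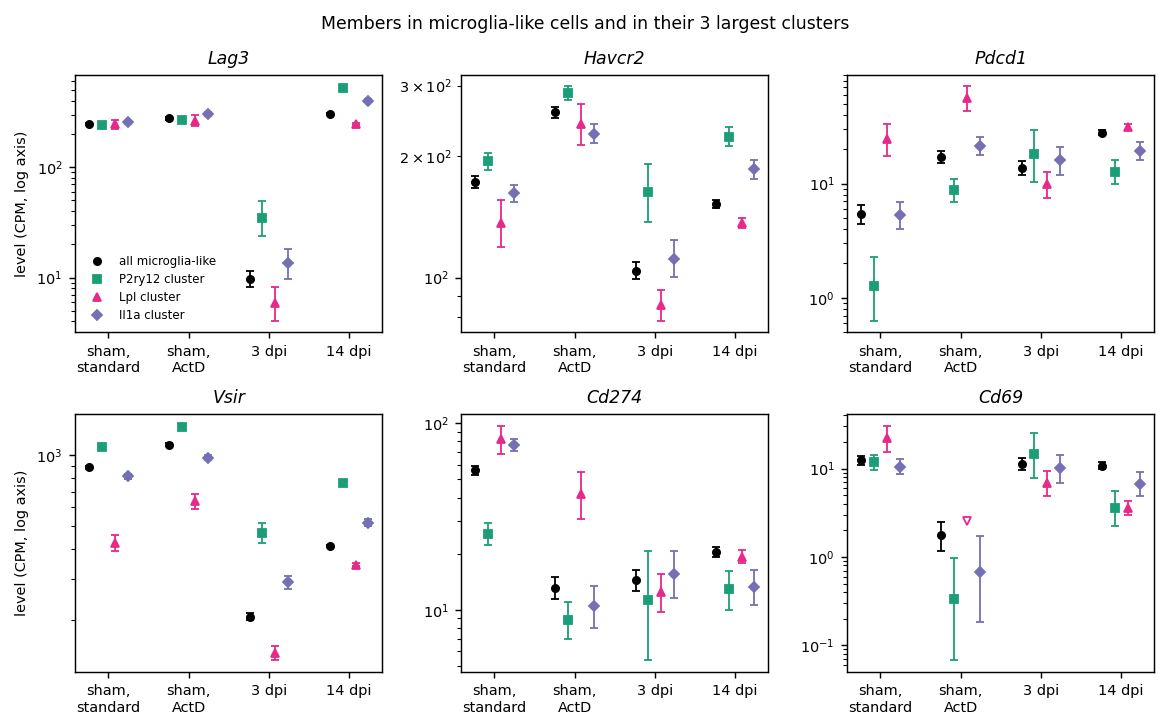
Levels of 6 of the genes (CPM, log axes that differ between panels, 95% Poisson intervals) in all microglia-like cells and in their 3 largest clusters, by library. Lag3 at 3 dpi is below every other library in each cluster, and Vsir in every injured library lies below both sham libraries in the same cluster.

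Of the ligand genes, Vsir was the one past 2-fold lower in microglia-like cells at both times. It stood at 890 CPM (877 to 903) in the standard sham, 1105 (1089 to 1120) in the ActD sham, 207 (199 to 214) at 3 dpi and 412 (406 to 417) at 14 dpi. The 3 dpi level was 5.35-fold and the 14 dpi level 2.68-fold lower than in the ActD sham, with log2 ratios of -2.42 and -1.42. Vsir lay lower than in both sham libraries within each cluster, with 469 and 763 CPM in the P2ry12 cluster, 145 and 344 in the Lpl cluster, and 289 and 516 in the Il1a cluster at 3 and 14 dpi. In the ActD sham these clusters had 1310, 638 and 974 CPM. Cd274 was at 56.0, 13.1, 14.4 and 20.4 CPM, a log2 ratio over the ActD sham of 0.13 (-0.14 to 0.41) at 3 dpi and 0.63 (0.42 to 0.85) at 14 dpi, but -1.11 at 14 dpi within the Lpl cluster. Pdcd1lg2 had 1, 0, 4 and 33 UMIs in these classes, and the 14 dpi level, 0.673 CPM, was at least 3.85-fold higher than the level of 3 UMIs in the ActD sham.

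At 3 dpi, 0 of the 2 ligand genes with enough UMIs were past 2-fold higher in microglia-like cells and 1 (Vsir) was lower, beside the same 13.7% and 32.7% of genes. At 14 dpi 1 of 3 (Pdcd1lg2) was higher and 1 (Vsir) lower, beside 6.27% and 20.3% of 12514 genes. Vsir was thus among many genes past 2-fold lower, and its ratios were -1.88 and -0.87 relative to the median shift of the same comparison. With TMM factors the 14 dpi ratio of Vsir was -0.85 and no longer past 2-fold, and that of Cd274 was 1.21. Within the P2ry12, Lpl and Il1a clusters the Vsir ratio at 14 dpi was -0.78, -0.89 and -0.92, so past 2-fold in none. A list of 20 other genes of antigen-presenting cells held ligands and also receptors, such as Cd40 and Tnfrsf14. Of these, 12 could be compared at 3 dpi, with 2 past 2-fold higher and 4 lower. The higher ones were Tnfsf9, the ligand of 4-1BB, at 3.32 CPM in the ActD sham and 16.6 at 3 dpi, and Cd40, a costimulatory receptor, at a log2 ratio of 1.95. The lowest were Tnfrsf14 at -3.10, Cd80, a ligand of CD28 and CTLA-4, at -2.51, and Icosl, the ligand of ICOS, at 66.3 CPM in the ActD sham and 18.5 at 3 dpi, a log2 ratio of -1.84. At 14 dpi 14 could be compared, with 3 higher and 5 lower, led by Tnfsf18, Nectin3 and Cd40 and by Cd276, Cd80 and Ceacam1, at -2.17, -2.08 and -1.74.

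The sham libraries, which differ in dissociation, library and software version, also differed in some of these genes in microglia-like cells. The standard sham had 4.27-fold more Cd274 (3.70 to 4.95) and 7.07-fold more Cd69 (4.83 to 10.7), and 3.17-fold less Pdcd1 (2.54 to 3.98), beside 6.96% of genes past 2-fold higher and 23.6% lower. Tnfsf9 was at 3.32 CPM with ActD and 164 CPM without. With the standard sham as the uninjured sample, Cd274 in microglia-like cells would be lower rather than higher at both times after injury.

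Macrophage-like cells had lower levels of Lag3 than microglia-like cells in every library, at 33.5, 36.5, 0.758 and 96.1 CPM. From 3 to 14 dpi, Lag3 was 127-fold higher (92.3 to 179), Pdcd1 11.4-fold higher, at 0.610 and 6.94 CPM, and Havcr2 2.08-fold higher, at 46.5 and 96.7 CPM. Of 5 receptor and activation genes 3 were past 2-fold higher, beside 18.2% of genes, and 0 lower, beside 10.4%. In the same comparison the 9 microglial markers in macrophage-like cells went from 810 to 4426 CPM and the 8 macrophage markers from 14253 to 3663 CPM, and their part in these ratios was not tested. At 14 dpi 7 of the 9 microglial markers were found in at least 25% of the macrophage-like cells. The class was made of a cluster led by Gpnmb and Fabp5, with 2283 of 3169 cells at 3 dpi and 240 of 452 at 14 dpi, and one led by Mrc1 and Lyve1, with 853 and 209. Cd274 was at 19.8 and 19.4 CPM (log2 -0.03, -0.32 to 0.25) over the class. It stood at 18.8 and 23.2 CPM in the Gpnmb cluster and at 25.5 (22.5 to 28.8) and 11.3 (6.99 to 17.3) in the Mrc1 cluster. Vsir was at 154 CPM at 3 dpi and 243 at 14 dpi, below the 387 CPM of the ActD sham at both times. Pdcd1lg2 had 32 and 7 UMIs, 0.592 and 1.21 CPM, a log2 ratio of 1.04 (-0.39 to 2.24) that did not leave counting error, so 1 of 3 ligand genes was past 2-fold higher and 0 lower.

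Neither measured ligand gene was past 2-fold in monocyte-like cells of the injured libraries. Cd274 was at 20.4 and 21.5 CPM (log2 0.08, -0.32 to 0.48) and Vsir at 274 and 306 (log2 0.16, 0.05 to 0.27, but -0.086 with TMM factors), so 0 of 2 ligand genes were past 2-fold in either direction, beside 16.5% of genes higher and 9.34% lower. The Cd274 ratio rested on the choice of cells, and became -0.81 with each cell named by its own UMIs, -0.52 with the stricter filter, -0.34 with a looser filter and -0.36 with a clustering resolution of 1.2. In the ActD sham, 24 monocyte-like cells had 96.5 CPM of Cd274 (67.2 to 134), against 11.7 in the 191 cells of the standard sham. Havcr2 was at 130 CPM at 3 dpi and 57.6 at 14 dpi, a log2 ratio of -1.17 (-1.37 to -0.97), the opposite direction to macrophage-like cells.

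Neutrophil-like cells had the highest Pdcd1lg2 level outside dendritic-cell-like classes at 3 dpi, overlapped only by the 4 UMIs of B-cell-like cells. Pdcd1lg2 was at 2.20 CPM in the standard sham, 0 UMIs in the ActD sham, 21.0 CPM (16.9 to 25.7) at 3 dpi and 4.34 (3.23 to 5.71) at 14 dpi. Cd274 stood at 16.4, 10.1, 32.0 and 11.6 CPM, and Vsir at 412, 423, 569 and 314 CPM. The log2 ratios of 14 dpi over 3 dpi were -2.27 for Pdcd1lg2, -1.47 for Cd274 and -0.86 for Vsir, and 2 of 3 were past 2-fold lower, beside 44.9% of 10465 genes, with 0 higher, beside 8.44%. With TMM factors they were -1.34, -0.53 and 0.076, so that Cd274 was no longer past 2-fold and Vsir turned. The median over all genes in this comparison was -0.87, and the 8 neutrophil markers summed to 53903 CPM at 3 dpi and 346559 at 14 dpi. Cd69 stood at 16.8, 11.1, 208 and 20.3 CPM and Havcr2 at 12.7, 5.31, 66.9 and 7.83, so for both the 3 dpi library was the high sample.

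Within 1 cluster the neutrophil-like Cd274 ratio turned, while Pdcd1lg2 had overlapping intervals and Vsir kept its direction. The cluster led by Stfa2l1 and Il1b held 1797 of 1832 cells at 3 dpi and 546 of 1380 at 14 dpi, and the cluster led by Retnlg and Ltf held 661 at 14 dpi. In the Stfa2l1 cluster Cd274 was at 32.4 CPM (27.2 to 38.3) at 3 dpi and 69.4 (57.4 to 83.1) at 14 dpi. Pdcd1lg2 was at 21.8 (17.6 to 26.7) and 27.0 (19.8 to 36.1), with intervals that overlapped. In the Retnlg cluster at 14 dpi Cd274 was at 2.17 CPM and Pdcd1lg2 at 0.334. Cd69 kept its direction in the Stfa2l1 cluster, at 215 and 24.7 CPM, as did Havcr2, at 68.4 and 21.2, and Vsir, at 578 and 316.

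Migratory DC-like cells, which are led by Ccr7 and Ccl22, had the highest levels of both PD-1 ligands among classes with at least 20 cells in a library. They were named in the injured libraries alone. The standard sham held 26 conventional DC2-like and 57 plasmacytoid DC-like cells, and the ActD sham 3 and 4. By flow cytometry the study found that the great majority of DCs of its sham group were migratory DCs, unlike the DC-like cells named here. The cause of this difference was not tested. Cd274 was at 204 CPM (166 to 248) in 83 cells at 3 dpi and 147 (107 to 197) in 40 cells at 14 dpi, and Pdcd1lg2 at 70.8 (49.3 to 98.5) and 33.4 (16 to 61.4). The log2 ratios were -0.48 (-1.02 to 0.05) and -1.09 (-2.26 to -0.04), and 1 of 3 ligand genes was past 2-fold lower, beside 11.8% of 4275 genes, with 0 higher, beside 9.17%. After thinning, 16.9% and 12.5% of these cells had a Cd274 UMI, against 62.7% and 62.5% without thinning, at median depths of 5850 and 7705.5 UMIs. Vsir was low in the same cells, at 52.6 and 30.03 CPM. These cells also had 12 Pdcd1 UMIs at 3 dpi, 24.3 CPM (12.5 to 42.4), which overlapped the T-cell-like level, and none at 14 dpi.

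Other dendritic-cell-like classes had lower PD-1 ligand levels. In conventional DC2-like cells, led by Cd209a and Ifitm1, Cd274 was at 20.2 and 11.2 CPM at 3 and 14 dpi, Pdcd1lg2 at 12.3 and 5.41, and Vsir at 99.0 and 115. Pdcd1lg2 was past 2-fold lower (log2 -1.18, -2.24 to -0.21, but -0.56 with the stricter filter), 1 of 3 ligand genes, beside 5.73% of genes, with 0 higher, beside 7.74%. Most DC2-like cells of 3 dpi lay in clusters led by Ifitm1 and by Cd7, and most of those of 14 dpi in clusters led by Cd209a. These clusters, too, were made without integration, so library and cell type cannot be told apart in them. Cd86, the other ligand of CD28 and CTLA-4, was at 222 CPM at 3 dpi and 91.9 at 14 dpi in these cells. Conventional DC1-like cells had 156 CPM of Havcr2 (122 to 195) in 51 cells at 3 dpi and 142 (112 to 177) in 47 cells at 14 dpi, a difference within counting error. Havcr2 is known from such cells but was not particular to them here. Its level in microglia-like cells of the ActD sham, given above, was higher. In the DC1-like cells Cd274 had 8 UMIs at 3 dpi and 0 at 14 dpi. Plasmacytoid DC-like cells had 0 or 1 UMI of Cd274 in each library with at least 10 of them.

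**Figure D4:**
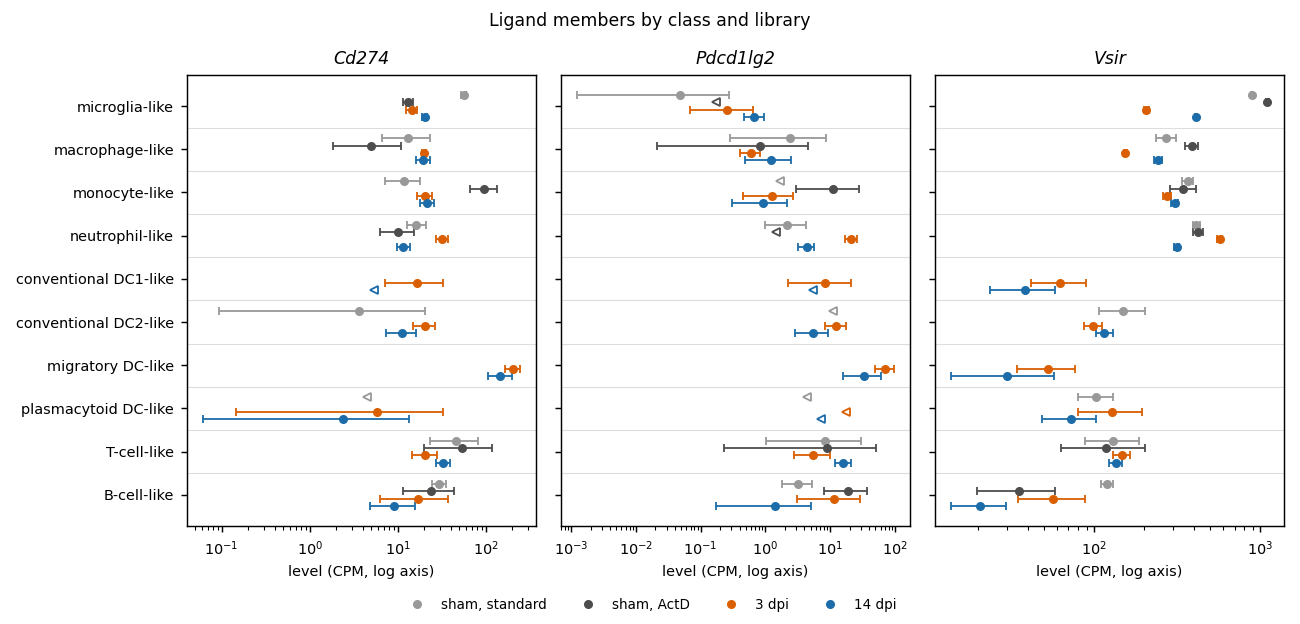
Levels of the 3 ligand genes (CPM, log axis, 95% Poisson intervals) by class and library, for classes with at least 10 cells in a library. Open triangles mark 0 UMIs and stand at the level of 3 UMIs. Migratory DC-like cells have the highest Cd274 (204 and 147 CPM) and microglia-like cells of the sham libraries the highest Vsir (890 and 1105 CPM).

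Cd274 and Pdcd1lg2 were both highest in migratory DC-like cells, so the 250 bases before the start of each of these neighbouring genes are shown, from RefSeq on GRCm38.p6. Promoters were found for 7 of the 10 genes. They were searched on both strands for TTCNNNGAA, the letters of a STAT site, which 7.02% of 32851 promoters of that length hold. None of the 7 windows holds these letters, which says nothing of the factors. The windows, printed 5′ to 3′ on the plus strand, are chr19:29367188-29367437 for Cd274 and chr19:29410669-29410918 for Pdcd1lg2.
Cd274: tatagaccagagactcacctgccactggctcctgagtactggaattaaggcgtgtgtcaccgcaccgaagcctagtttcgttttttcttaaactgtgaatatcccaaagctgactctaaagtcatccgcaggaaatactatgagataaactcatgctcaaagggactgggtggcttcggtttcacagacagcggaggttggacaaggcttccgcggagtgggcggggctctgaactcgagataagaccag
Pdcd1lg2: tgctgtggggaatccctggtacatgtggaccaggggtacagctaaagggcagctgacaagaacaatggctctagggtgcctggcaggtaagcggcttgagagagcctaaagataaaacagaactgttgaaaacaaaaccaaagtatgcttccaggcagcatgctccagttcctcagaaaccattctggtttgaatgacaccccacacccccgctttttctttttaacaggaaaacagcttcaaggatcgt

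Lag3 in other classes was set beside the microglial markers found there. Summed over the 9 microglial markers, T-cell-like cells at 14 dpi had 3.37% of the microglia-like level, from 2.04% to 5.39% by marker, and their Lag3 was 6.34% of it, above the highest marker. B-cell-like cells had 4.36% of the markers and 5.16% of Lag3, neutrophil-like cells 4.23% and 4.74%, and monocyte-like cells 6.24% and 7.02%. In NK-cell-like cells Lag3 was 8.53% of the microglia-like level and in gamma-delta T-cell-like cells 6.70%, also above the highest single marker, 5.56% and 5.68%. This was not particular to T and NK cells. Mast-cell- or basophil-like cells at 14 dpi had 6.73% of Lag3 beside a highest marker of 3.26%. In the standard sham B-cell-like cells had 14.8% beside 13.9%, and neutrophil-like cells 10.5% beside 10.1%. At 3 dpi, where microglia-like cells had little Lag3, T-cell-like cells had 61.6% of their Lag3 level beside 9.0% of the markers, from 12 UMIs. Here too T-cell-like cells did not stand alone, since conventional DC2-like cells had 147% of Lag3 beside 9.35% of the markers. Neutrophil-like cells, at 14.0% beside 19.4%, and macrophage-like cells, at 7.82% beside 17.3%, went the other way. The part of free RNA in these values was not tested.

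**Figure D5:**
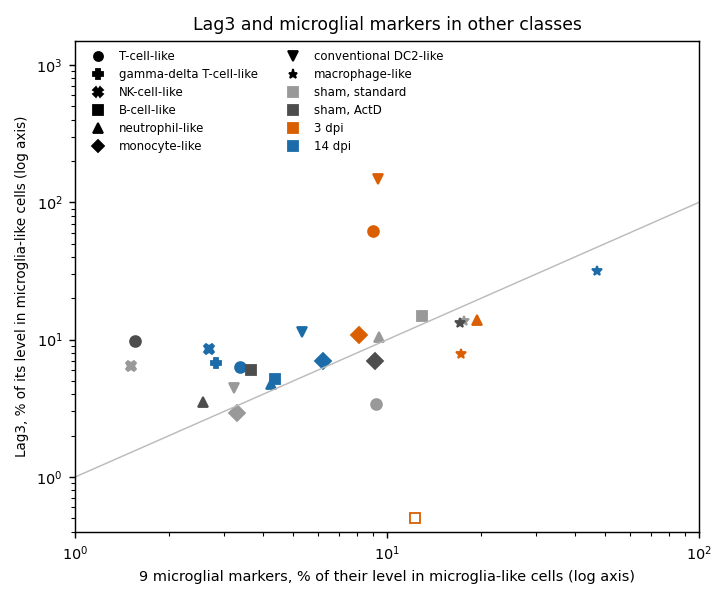
Lag3 in other classes as a percentage of its level in microglia-like cells of the same library, against the same percentage for the sum of 9 microglial markers (both axes log). The line marks equal percentages, and the open square marks 0 UMIs in B-cell-like cells at 3 dpi. B-cell-like, neutrophil-like and monocyte-like cells at 14 dpi lie near the line, at 5.16%, 4.74% and 7.02% of Lag3.

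The genes whose levels were most like those of a member were looked for over 35 class sums with at least 50 cells, among 12210 genes, by the Pearson correlation of log2(CPM + 10). The sums of a library share its depth and free RNA, so the correlations are descriptions. For Icos these were Camk4 (0.99), Cxcr6 (0.98) and Cd3g (0.98), all known from T cells, and for Ctla4 they were Cxcr3 (0.94), Cd28 (0.93) and Gbp8 (0.93). Pdcd1 was most like Bik (0.83), Actn2 (0.82) and Tnfrsf25 (0.81). Cd274 was most like Relb (0.82), Eno2 (0.75) and Map3k14 (0.72), and Vsir most like Diaph2 (0.85), Snx18 (0.83) and Ralb (0.83).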

How the data were processed

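The deposited matrices hold UMI counts per gene and barcode, which the authors made with Cell Ranger on mm10 (per the submitters' processing notes). They were not yet filtered as the study's methods describe, so barcodes with under 600 genes or over 10% mitochondrial UMIs, or with UMIs of both Itgam and lymphoid marker genes, were removed. Cells most like simulated doublets were taken out, at a rate of 0.8% per 1000 cells. Libraries were integrated with Seurat 5.3.0 (2000 features, 50 dimensions, resolution 0.6), and lymphoid, DC and mixed clusters were clustered again with scanpy 1.11.5. The second clustering was made without integration. The members and both lists of 20 genes were left out of clustering. A cluster was named from at least 3 markers of a fixed list.

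UMI counts were summed per class and library. Levels are counts per 1000000 UMIs of the class, with exact 95% Poisson intervals, ratios have exact conditional intervals, and shares Clopper-Pearson intervals. All cover counting error only. With 1 library per condition no test was made. A ratio needed 20 UMIs in the pair, and past 2-fold was a call. A count of 0 was set to a limit of 3 UMIs. Shares were compared after thinning each cell to 1000 UMIs. On simulated counts the ratio intervals were tested for coverage. TMM factors came from edgeR 4.0.16, as an alternative only.

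The members and lists were chosen with earlier results of these data known. All 10 members are named. Of the 2 lists, the 3 highest and 3 lowest ratios among genes with 20 UMIs are named, and the 3 genes of highest correlation for 5 members.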

Additional observations from a re-analysis of the deposited data

Results flagged for a closer look

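The ratio of 14 dpi over 3 dpi took opposite signs between classes for Havcr2 and Pdcd1lg2, and with 1 library per condition the difference between classes was not tested. Havcr2 had a log2 ratio of 1.06 in macrophage-like cells, but -1.17 in monocyte-like cells and -3.10 in neutrophil-like cells. The medians over all genes were 0.22, 0.28 and -0.87 in these comparisons. The macrophage-like cells of 14 dpi had 4426 CPM of the microglial markers, against 3663 of the macrophage markers. Microglia-like cells also carried Havcr2, and the part of this in the macrophage-like ratio was not tested. Pdcd1lg2 had a log2 ratio of 1.54 in T-cell-like cells, from 11 and 54 UMIs, but -2.27 in neutrophil-like cells, -1.18 in conventional DC2-like cells and -1.09 in migratory DC-like cells. Most T-cell-like cells of the 2 times lay in different clusters, which were made without integration of the libraries. The lower neutrophil-like level at 14 dpi was not seen within the cluster led by Stfa2l1, where the intervals of the 2 times overlapped, as given above.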

How the results depend on the processing

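No paired analysis was possible because each condition has 1 library, and for the same reason no replicate could be left out. Counts of 0 limit many values, since 3 UMIs in a class of few cells allow a level near that of the receptors themselves, and the sham libraries held 32 and 15 T-cell-like cells. The alternatives confined to Cd4 or Cd8 cells, to cells without Trdc and Cd163l1 UMIs, or to 1 cluster were chosen after seeing the data. Of the 379 values of single genes under alternatives, 255 stayed within the counting interval, 107 left it without a called direction turning and 17 turned. Of the 100 counts and shares under alternatives, 72 stayed and 28 moved. A count that changed a little was also taken to have stayed. For ligand genes past 2-fold lower in myeloid classes, 4 became 6 with a clustering resolution of 1.2 and counted as stayed. The share of all genes past 2-fold was taken under the main choices only. Counts of genes under alternatives, given below, therefore have no such share beside them and cannot be read against it.

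For the T cell receptors, 1 gene in place of 0, Icos, was past 2-fold lower with the stricter filter, without the removal of doublets, without integration and with Itgam and lymphoid UMIs allowed in a cell. In the Cd8 gate 2 genes were past 2-fold higher (Pdcd1 and Lag3) and 1 lower (Havcr2), and in the Cd4 gate 0 were higher. The Ctla4 ratio turned to -0.056 with the stricter filter and that of Havcr2 to 0.025 with doublets kept. The cause was not tested.

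In microglia-like cells over the standard sham, Vsir had log2 ratios of -2.11 at 3 dpi and -1.11 at 14 dpi. Those of Cd274 were -1.96 and -1.46, so both ligand genes were past 2-fold lower at both times. Of the ratios over that sham, Cd274 turned to -1.46 at 14 dpi, Cd69 to -0.12 at 3 dpi and -0.20 at 14 dpi, and Pdcd1 to 1.35 at 3 dpi. With TMM factors 2 ligand genes were higher and 0 lower at 14 dpi, and Pdcd1 at 3 dpi turned to 0.16. Without a minimum of UMIs 1 was higher at 3 dpi. Without integration the microglia-like class at 3 dpi fell under 20 cells, so its 3 dpi ratios, those of Lag3, Havcr2 and Vsir among them, have no value there. The macrophage-like class at 3 dpi then held 4402 cells in place of 3169. With each cell named by its own UMIs, the 3 dpi ratios of Lag3, Havcr2 and Vsir in microglia-like cells were -4.67, -1.18 and -2.31. Within the P2ry12 and Il1a clusters 0 were past 2-fold higher and 0 lower at 14 dpi, and within the Lpl cluster 2 were lower at 3 dpi. Within clusters Pdcd1 turned to 1.05 at 3 dpi (P2ry12), to -0.84 at 14 dpi (Lpl) and to -0.14 at 14 dpi (Il1a), and in the Lpl cluster at 14 dpi Cd274 turned to -1.11 and Lag3 to -0.092.

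In the myeloid classes the 1 gene past 2-fold higher from 3 to 14 dpi, Pdcd1lg2 in macrophage-like cells, was lost (0 genes) with TMM factors, with each cell named by its own UMIs and with doublets kept. With each cell named by its own UMIs, 4299 cells at 3 dpi and 76 at 14 dpi were macrophage-like. Without a minimum of UMIs 8 in place of 4 were past 2-fold lower. Vsir in monocyte-like cells turned to -0.086 with TMM factors and -0.072 with cells named by their own UMIs, and in neutrophil-like cells to 0.076 with TMM factors. In the Stfa2l1 cluster Cd274 and Pdcd1lg2 of neutrophil-like cells turned to 1.10 and 0.31, the latter from levels whose intervals overlapped.

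Shares of cells with a UMI follow the depth they are thinned to. Icos in T-cell-like cells was found in 7.72% at 3 dpi and 4.78% at 14 dpi after thinning to 500 UMIs, and in 37.1% and 31.9% without thinning, so the higher share was at 3 dpi in both. Pdcd1 in gamma-delta T-cell-like cells was found in 41.5% without thinning, and Lag3 in microglia-like cells at 14 dpi in 13.9% after thinning to 500 UMIs and 84.5% without thinning.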

Other observations

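Other genes of the list of ligands and receptors of antigen-presenting cells also differed between 3 and 14 dpi. Cd40, the costimulatory receptor that T cells engage through CD40 ligand, was the list gene with the highest ratio of 14 dpi over 3 dpi in 3 dendritic-cell-like or monocyte-like classes. It stood at 58.7 and 197 CPM in migratory DC-like cells, at 14.6 and 35.3 in conventional DC2-like cells and at 8.12 and 24.9 in monocyte-like cells, with log2 ratios of 1.75 (1.08 to 2.44), 1.27 (0.70 to 1.87) and 1.62 (1.09 to 2.17). Cd86 went the other way in migratory DC-like cells, at 198 and 117 CPM (log2 -0.76, -1.36 to -0.19). Tnfsf9 in neutrophil-like cells stood at 92.8 CPM at 3 dpi and 1.45 at 14 dpi, a log2 ratio of -6.00, and Ceacam1, a ligand of TIM-3, at 24.1 and 168 CPM, a log2 ratio of 2.80.

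Cd69 was also found in classes that are not T or NK cells. B-cell-like cells had 698 CPM (674 to 723) in the standard sham, against 258 (212 to 311) in the ActD sham, 339 at 3 dpi and 259 at 14 dpi. Mast-cell- or basophil-like cells had 172 CPM in the standard sham and 283 (258 to 309) at 14 dpi, and plasmacytoid DC-like cells 455, 157 and 79.4 CPM in the standard sham, 3 dpi and 14 dpi libraries.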
